A study of Homo sapiens with 4 samples.

Results

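The genes described here are 40 genes of cholesterol synthesis, sterol handling and fatty acid synthesis, together with the SREBP transcription factors that control them. They were chosen by symbol from a fixed list, all 40 were found among the 55764 gene names of the deposited table, and 38 of them passed the expression filter used for testing, a mean FPKM of at least 1. FPKM is the number of fragments per kilobase of gene, scaled to library size. The RNA came from TE5, an established human cell line labelled as oesophageal squamous carcinoma. The study compared 2 libraries of TE5 cells given a CMV-driven ETS1 overexpression vector with 2 libraries of control cells, whose genotype the labels give as WT and for which the protocol names the vector backbone. ETS1 is a transcription factor of the ETS family. The protocol for both groups describes infection with lentivirus made in HEK293T cells. The labels do not say how long after infection RNA was taken or whether the lines are clones or pools, nor whether the numbered libraries came from separate cultures, so p-values measure only the spread between these libraries.

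Cholesterol is built from acetyl-CoA. The mevalonate steps make isoprenoid units, squalene synthase and squalene epoxidase commit them to sterols, and a series of reductases, demethylases and isomerases turns lanosterol into cholesterol. The pathway is known for its feedback control: when sterols in the endoplasmic reticulum fall, the escort protein SCAP carries the SREBP precursors to the Golgi, where site-specific proteases release the active factors. INSIG proteins hold SCAP back when sterols are plentiful. SREBP-2, from SREBF2, acts mainly on cholesterol genes and SREBP-1, from SREBF1, mainly on fatty acid genes, while the liver X receptors, sensors of oxidised sterols, switch on efflux.

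The overexpressed gene was examined first. ETS1 had an FPKM of 0.491 and 0.509 in the controls and 1.84 and 1.87 in the ETS1 libraries, a ratio of 3.71, so both ETS1 libraries lay above both controls. Reads recovered from the deposited values numbered 40356564 and 44119426 in the controls and 57269727 and 56502625 in the ETS1 libraries. The squamous markers KRT5, KRT14, KRT6A and TP63 were all listed at 0 in both controls and none exceeded 0.0165 FPKM in any library, while the simple epithelial markers KRT8, KRT18 and EPCAM summed to between 15.51 and 16.001 FPKM. Within that sum KRT8 rose from 3.89 ± 0.0277 to 6.53 ± 0.0770 FPKM and KRT18 fell from 10.4 ± 0.217 to 8.32 ± 0.0402 (SD, n = 2 each), while EPCAM was 0.748 times the control level and did not pass (limma adjusted p 0.0525). The 3 leukocyte markers summed to at most 0.0926 FPKM and the endothelial marker VWF reached at most 0.0447. PECAM1, also listed as an endothelial marker, was not analysed here. Of the 5 fibroblast markers, COL1A1 was the only one above the filter, and the list summed to 2.11 to 2.23 FPKM in the controls and 3.02 to 3.08 in the ETS1 libraries; its part in the results was not tested.

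With ETS1, 19 of the 38 tested members were lower and 6 higher at a limma adjusted p under 0.05. Together this was 65.8% of the members, near the 59.1% of all 14306 tested genes that were called. Over all tested genes the calls were 28.4% lower and 30.7% higher. In bulk RNA, fewer cells of a type and less RNA per cell cannot be told apart. Transcripts of the mitochondrial genome moved with the groups: they made up 3.03% and 3.06% of recovered reads in the controls and 5.57% and 5.71% in the ETS1 libraries, and 17 of the 20 tested were higher and 0 lower, with a median log2 change of 0.86. Their part in the members' changes was not tested. The median log2 change of the tested members was -0.11, against 0.016 over all tested genes. The library values of 36 of the 38 did not overlap between the groups, 24 lower and 12 higher, where 82.0% of all tested genes did not overlap (38.9% lower and 43.1% higher), and with 2 libraries a group an exact permutation test cannot go below p = 0.333. Changes were mostly small: 5 of the called members, FDFT1, SQLE, ACAT2, SC5D and STARD4, had an absolute log2 change of at least 0.5, a size that 10.6% of all tested genes reached with a call. Without the library ETS1 2, 12 members were lower and 4 higher, or 42.1%, where 40.5% of all tested genes were called. With 1 library left out, its group is a lone library assumed to vary like the others, and 1 residual degree of freedom remains, so a call lost this way may reflect the smaller design. With no filter on low values, the calls of PMVK, MVD, LBR, NSDHL, MYLIP and ELOVL6 were lost, and quantile normalization ended those of PMVK, NSDHL, SREBF2 and MYLIP. In the authors' deposited table, 19 of these 38 genes were lower and 5 higher at an adjusted p under 0.05, where 51.2% of all its genes with an adjusted p passed (25.9% lower and 25.3% higher). All 24 genes called by both methods moved in the same direction, and MYLIP was called by limma alone.

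**Figure D1:**
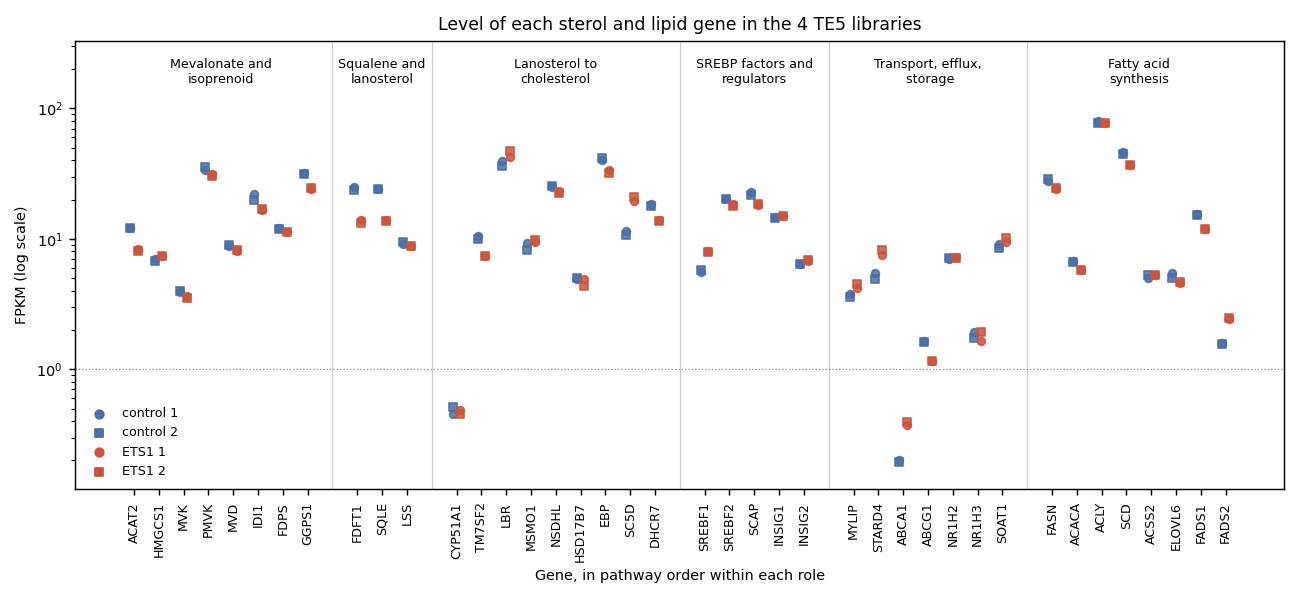
FPKM on a log axis for each of the 40 genes in the 2 control libraries (blue) and the 2 ETS1 libraries (red), grouped by role, with a dotted line at the filter of 1 FPKM. CYP51A1 and ABCA1 lie below the line, FDFT1 and SQLE fall from about 24 to about 14 FPKM, and SC5D rises from 11.1 to 20.4.

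The 5′ flanking sequence of members that moved in opposite directions is shown so that it can be read beside their values. RefSeq windows on GRCh38.p14 were matched for 35 of the 40 members by symbol, and the 250 bases before each start were searched on both strands for the letters TCACNCCAC (an SREBP site), CCAAT (NF-Y), GGGCGG (SP1) and CCGGAAG (an ETS site). Of the 33 tested members among them, 24 held CCAAT, or 72.7%, against 42.0% of the 8924 tested genes with a window. GGGCGG was found for 31 of 33, against 76.8% of tested genes, and CCGGAAG for 6 of 33, or 18.2%, against 19.4%. TCACNCCAC was found for SREBF2 only, against 1.19% of tested genes. No window was matched for FDFT1, SQLE, ACAT2, ABCG1 and FASN, all of them called lower. A split by direction therefore lacks the members with the deepest falls, FDFT1 (-0.81), SQLE (-0.77) and ACAT2 (-0.51). By direction, CCAAT was found for 10 of 14 members called lower, 3 of 6 called higher and 11 of 13 that did not pass. CCGGAAG was found for 1 of 14 members called lower (IDI1), 0 of 6 called higher and 5 of 13 that did not pass. Counted by window and not by gene, 0.88% of all promoter windows in the RefSeq table held TCACNCCAC, 32.02% CCAAT, 42.6% GGGCGG and 8.50% CCGGAAG. For the 51 windows of the members, the shares in the same order were 1.96%, 54.9%, 84.3% and 15.7%. A match is a description of letters and not a measured binding site. Only these exact letters within 250 bases were searched, so a missing match does not show that a site is absent. The stretches below are the longest parts of these windows free of annotated exons, 5′ to 3′, and capitals mark any of the 4 motifs or its reverse complement. The 4 genes were chosen with their values known: SREBF1 and STARD4 rose, and DHCR7 and IDI1 fell. The DHCR7 start lies inside its GENCODE gene, a second RefSeq window of DHCR7 held none of the letters, and IDI1 is shown at the start that adjoins its GENCODE gene and at a more upstream RefSeq start, since only the latter holds the ETS letters.
SREBF1 (chr17:17837003-17837236, minus strand): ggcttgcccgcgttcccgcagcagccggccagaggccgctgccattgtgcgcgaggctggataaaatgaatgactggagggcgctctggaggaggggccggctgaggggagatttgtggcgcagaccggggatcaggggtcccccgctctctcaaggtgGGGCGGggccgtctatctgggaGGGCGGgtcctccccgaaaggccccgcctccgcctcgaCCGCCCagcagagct
STARD4 (chr5:111512591-111512785, minus strand): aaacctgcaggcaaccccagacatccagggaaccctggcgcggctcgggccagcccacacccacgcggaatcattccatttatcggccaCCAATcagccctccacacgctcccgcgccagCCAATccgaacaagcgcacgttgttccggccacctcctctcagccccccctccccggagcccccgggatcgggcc
DHCR7 (chr11:71448436-71448643, minus strand): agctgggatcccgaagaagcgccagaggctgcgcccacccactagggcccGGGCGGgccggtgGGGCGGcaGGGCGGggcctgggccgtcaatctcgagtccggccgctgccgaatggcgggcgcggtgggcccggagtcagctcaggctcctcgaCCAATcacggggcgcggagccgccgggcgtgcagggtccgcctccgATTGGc
IDI1 (chr10:1049171-1049369, minus strand): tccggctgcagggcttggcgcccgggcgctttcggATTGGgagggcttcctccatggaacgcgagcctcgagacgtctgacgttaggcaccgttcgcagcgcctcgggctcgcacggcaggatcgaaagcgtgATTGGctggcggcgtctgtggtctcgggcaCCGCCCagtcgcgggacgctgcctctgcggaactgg
IDI1 (chr10:1056705-1056846, minus strand): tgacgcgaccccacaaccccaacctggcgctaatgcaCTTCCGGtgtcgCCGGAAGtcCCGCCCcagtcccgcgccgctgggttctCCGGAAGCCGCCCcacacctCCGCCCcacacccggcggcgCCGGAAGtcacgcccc

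In these stretches, STARD4 holds CCAAT beginning 161 and 130 bases before the start used, and DHCR7 holds CCAAT in both orientations, beginning 94 and 48 bases before it. SREBF1 holds GGGCGG or its complement at 3 places and no CCAAT. The upstream IDI1 stretch holds 4 ETS matches, beginning 105, 93, 56 and 16 bases before its start, and the stretch adjoining the gene holds none. Whether TE5 cells use the upstream start was not tested. INSIG2, which did not pass and is not shown, also holds ETS matches, beginning 126 and 73 bases before its start.

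The mevalonate genes were lower or did not pass. Of 8 tested, 5 fell and 0 rose, or 62.5% called, near the 59.1% of all tested genes. The median log2 change was -0.14, and their summed FPKM went from 131.3 ± 1.19 to 110.5 ± 0.715 (SD, n = 2 each). ACAT2 (chromosome 6, 159760328 to 159779055), a cytosolic acetoacetyl-CoA thiolase at the entry of the pathway, had 12.1 and 12.1 FPKM in the controls and 8.35 and 8.04 in the ETS1 libraries. The controls were near identical and both ETS1 values lay below them, and the log2 change was -0.51 (standard error 0.0341, limma adjusted p 0.000702). GGPS1 (chromosome 1, 235327350 to 235344532), which makes geranylgeranyl diphosphate for protein prenylation, had 32.2 and 31.5 FPKM in the controls and 24.1 and 24.5 in the ETS1 libraries. The fall was 0.38 on the log2 scale, with an adjusted p of 0.00091. In GENCODE 29, 37.3% of the exon bases of GGPS1 are shared with TBCE on the same strand, and TBCE went from 51.8 ± 0.591 to 37.0 ± 0.557 FPKM (SD, n = 2 each), so reads of the pair may not be told apart. For ACAT2, 33.9% of exon bases are shared with SOD2-OT1, 26.5% with SOD2 and 9.23% with TCP1, all on the opposite strand, and the use of strand in the counting is not given in the sources used here. TCP1 went from 69.8 ± 1.47 to 60.2 ± 2.01 FPKM and SOD2 from 7.02 ± 0.235 to 6.87 ± 0.246 (SD, n = 2 each); SOD2-OT1 was not analysed here. IDI1, HMGCS1 and FDPS share 14.8%, 14.95% and 18.6% of their exon bases with antisense genes.

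IDI1 (chromosome 10, 1039152 to 1049170), the isomerase that interconverts the basic isoprenoid units, had 22.1 and 19.8 FPKM in the controls and 16.6 and 16.9 in the ETS1 libraries. The controls differed from each other more than the ETS1 libraries did, without overlap between groups (-0.30, adjusted p 0.00851). PMVK and MVD, the last kinase and the decarboxylase of the mevalonate steps, fell by 0.16 and 0.12 on the log2 scale. The PMVK call was lost without ETS1 2 or control 2, and the MVD call without any one of the 4 libraries and with the local chromosomal median removed (-0.051). Quantile normalization gave -0.051 for PMVK. MVK, the mevalonate kinase, was 0.908 times the control level (95% interval of the log2 change -0.21 to -0.0071, adjusted p 0.065), and FDPS, which makes farnesyl diphosphate, 0.937 times (-0.16 to -0.011, adjusted p 0.0547). Neither passed, though MVK did under 5 alternatives and FDPS under trimmed-mean scaling (adjusted p 0.0254). HMGCS1, the cytosolic HMG-CoA synthase, was the one gene of this group with higher values, 6.95 and 6.74 FPKM in the controls against 7.44 and 7.35, and it did not pass (0.097, adjusted p 0.0658).

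The squalene steps held the deepest falls of the members. FDFT1 (chromosome 8, 11795573 to 11839309), squalene synthase, had 25.04 and 23.9 FPKM in the controls and 13.9 and 13.2 in the ETS1 libraries. SQLE (chromosome 8, 124998497 to 125022283), squalene epoxidase, an oxygen-dependent step, had 24.1 and 24.2 FPKM in the controls and 13.9 and 13.6 in the ETS1 libraries. The ETS1 levels were 0.555 and 0.571 times the control levels, far outside the spread of either pair. The log2 change of FDFT1 was -0.81 (standard error 0.0407, limma adjusted p 0.000494) and that of SQLE -0.77 (standard error 0.0286, limma adjusted p 0.000439). LSS, the next enzyme, which closes the ring to form lanosterol, was 9.21 and 9.44 FPKM in the controls and 8.76 and 8.86 in the ETS1 libraries. It did not pass (-0.074, 95% interval -0.16 to 0.011, adjusted p 0.111), but with the local chromosomal median removed it was at -0.20 and passed (adjusted p 0.0045).

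Both squalene genes that fell lie on chromosome 8, where 381 tested protein-coding genes had a median log2 change of -0.15, against 0.035 over 10876 such genes. Chromosome 8 was not the furthest from that median: chromosome 15, which holds no member, was at -0.23 over 344 genes, and the 13 protein-coding genes of the mitochondrial genome were at 0.94. The 50 tested genes to either side of FDFT1 had a median of -0.35, and those around SQLE -0.13. With the median deviation of these neighbours subtracted within each library and the fit repeated, FDFT1 was at -0.48 (adjusted p 0.000655) and SQLE at -0.64 (adjusted p 0.000218), so both calls held. FDFT1 was the only tested member whose neighbours had an absolute median of at least 0.2.

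**Figure D2:**
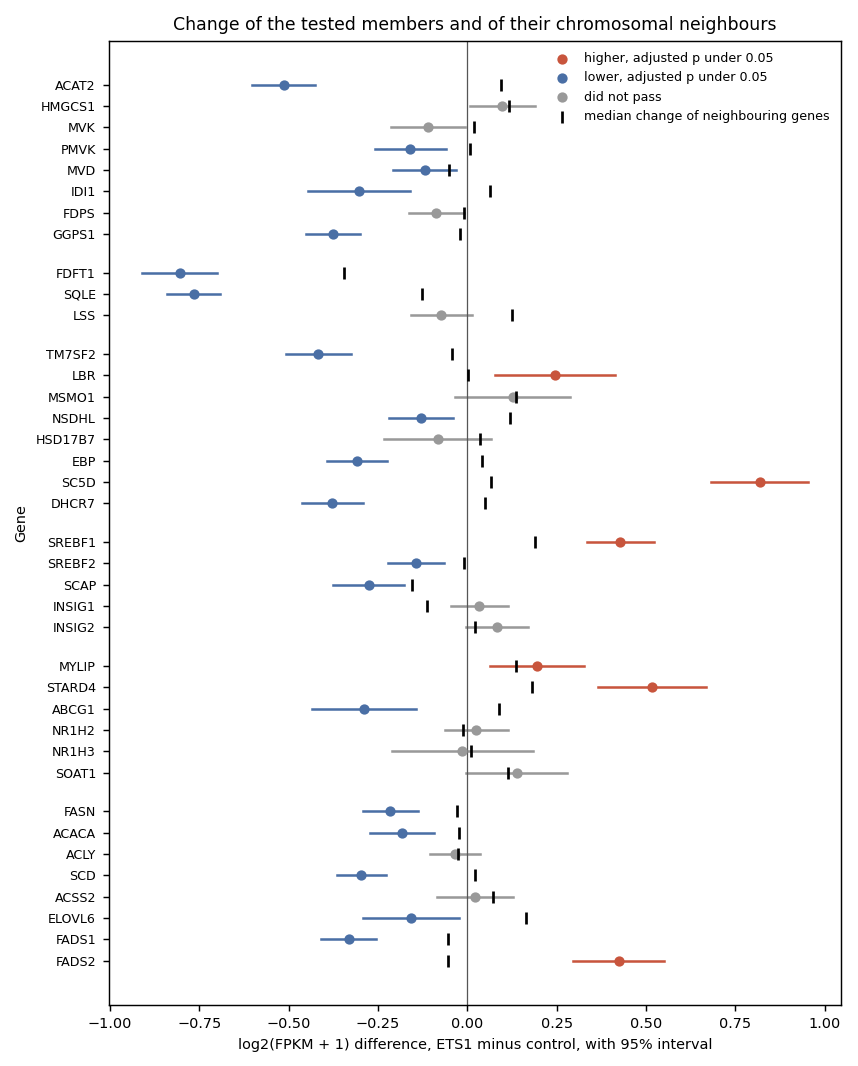
Difference in log2(FPKM + 1), ETS1 minus control, for the 38 tested members (points) with limma's 95% interval (lines), and the median change of the 50 tested genes to either side on the chromosome (black ticks). FDFT1 and SQLE lie furthest left at -0.81 and -0.77, SC5D furthest right at 0.82, and the neighbours of FDFT1 at -0.35.

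Among the enzymes from lanosterol to cholesterol, the changes went both ways. Of 8 tested, 4 fell, 2 rose and 2 did not pass, or 75.0% called against 59.1% of all tested genes, and the summed FPKM was 157.5 ± 3.58 in the controls and 156.9 ± 2.05 with ETS1 (SD, n = 2 each), within the spread of the libraries. SC5D (chromosome 11, 121292453 to 121308694), the lathosterol oxidase that introduces the C5 double bond, had 11.5 and 10.7 FPKM in the controls and 19.7 and 21.1 in the ETS1 libraries. This was the largest rise among the tested members, at 1.83 times the control level and 0.82 on the log2 scale (standard error 0.0522, limma adjusted p 0.000651). Its neighbours had a median of 0.066. DHCR7 (chromosome 11, 71428193 to 71452868), the reductase that takes the product of SC5D to cholesterol, had 18.6 and 17.9 FPKM in the controls and 13.9 and 13.8 in the ETS1 libraries. These 2 consecutive enzymes exchanged rank: DHCR7 stood above SC5D in both controls and below it in both ETS1 libraries. The fall of DHCR7 was 0.38 on the log2 scale (adjusted p 0.0012).

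TM7SF2 (chromosome 11, 65111845 to 65116384), a sterol C14 reductase, had 10.4 and 10.1 FPKM in the controls and 7.43 and 7.40 in the ETS1 libraries (-0.42, adjusted p 0.00106). LBR, the lamin B receptor, carries the same reductase activity in the inner nuclear membrane and rose, from 39.4 and 35.96 FPKM to 42.7 and 47.0 (0.25, adjusted p 0.0264). That call was lost without ETS1 2 (0.18, adjusted p 0.0964), without control 2 (0.18, adjusted p 0.0741) and with no filter on low values (adjusted p 0.111). EBP, the sterol isomerase encoded on the X chromosome, fell from 40.9 ± 0.688 to 32.8 ± 0.914 FPKM (SD, n = 2 each), and NSDHL, an X-linked C4 dehydrogenase, from 25.1 ± 0.223 to 22.9 ± 0.760. The NSDHL call was lost without ETS1 2 or without either control, and its log2 change of -0.13 became -0.25 with the local median removed and -0.058 under quantile normalization. Quantile normalization gave 0.37 for LBR and, for EBP, -0.20 in place of -0.31. MSMO1, the C4 methyl oxidase, and HSD17B7, the C3 ketoreductase, did not pass, at 1.10 and 0.934 times the control level (adjusted p 0.139 and 0.266). The value of MSMO1 depended on the control library: its log2 change of 0.13 was 0.21 without control 1, where it passed (adjusted p 0.0187), and 0.045 without control 2. That of HSD17B7, -0.083, was -0.15 without ETS1 1 and -0.014 without ETS1 2.

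CYP51A1 (chromosome 7, 92112151 to 92134803), the lanosterol demethylase, lay below the filter. It was listed at 0.456 and 0.517 FPKM in the controls and 0.488 and 0.451 in the ETS1 libraries, from 75 to 114 recovered reads, below every other enzyme of the sterol path. With no filter its log2 change was -0.016 (95% interval -0.17 to 0.14, limma adjusted p 0.862). In GENCODE 29, 79.4% of its exon bases are shared with AC000120.2, a protein-coding gene on the same strand, and how the authors assigned shared reads is not given in the sources used here. The pseudogene CYP51P2 was listed higher, at 1.98 ± 0.310 FPKM in the controls and 1.71 ± 0.0995 with ETS1 (SD, n = 2 each).

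The SREBP factors moved apart. Of the 5 factors and regulators, 1 rose, 2 fell and 2 did not pass, a called share near that of all tested genes. SREBF1 (chromosome 17, 17810399 to 17837002), the gene of SREBP-1, had 5.59 and 5.80 FPKM in the controls and 8.04 and 7.97 in the ETS1 libraries. It rose by 0.43 on the log2 scale (standard error 0.0361, limma adjusted p 0.0011). SREBF1 shares 6.92% of its exon bases with RAI1 on the opposite strand, and RAI1 went from 2.39 ± 0.109 to 3.68 ± 0.110 FPKM (SD, n = 2 each). The neighbours of SREBF1 had a median of 0.19, and with it removed the rise was 0.24 (adjusted p 0.00305). SREBF2 (chromosome 22, 41833079 to 41907308), the gene of SREBP-2, had 20.3 and 20.1 FPKM in the controls and 18.5 and 17.9 in the ETS1 libraries. Its fall of 0.14 (adjusted p 0.0131) was lost without ETS1 2 (-0.12, adjusted p 0.0954) and under quantile normalization (adjusted p 0.0518).

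SCAP (chromosome 3, 47413694 to 47477126), the sterol-sensing escort of both factors, had 23.01 and 21.7 FPKM in the controls and 18.1 and 18.4 in the ETS1 libraries. The groups did not overlap, and the log2 change was -0.28 (adjusted p 0.00373). Its neighbours had a median of -0.15, and with it removed the change was -0.13 (adjusted p 0.03). INSIG1 and INSIG2, which retain SCAP in the endoplasmic reticulum, did not pass. INSIG1, itself an SREBP target, had 14.7 and 14.3 FPKM in the controls and 14.9 and 14.9 in the ETS1 libraries, and the 95% interval of its log2 change ran from -0.047 to 0.11. With the local median removed, INSIG1 was at 0.15 and passed (adjusted p 0.0111). INSIG2 was 1.07 times the control level (adjusted p 0.0893).

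Genes of sterol transport, efflux and storage were the only role group with a higher summed FPKM, 28.5 ± 1.04 in the controls and 32.7 ± 1.32 with ETS1 (SD, n = 2 each). Of 6 tested, 2 rose, 1 fell and 3 did not pass, or 3 of 6 called against 59.1% of all tested genes. STARD4 (chromosome 5, 111496033 to 111512590), a soluble sterol carrier, had 5.44 and 4.95 FPKM in the controls and 7.58 and 8.16 in the ETS1 libraries. It rose by 0.52 on the log2 scale (standard error 0.0584, limma adjusted p 0.00216), and by 0.33 with its local median of 0.18 removed (adjusted p 0.00208). MYLIP (chromosome 6, 16129125 to 16148248), a ubiquitin ligase that lowers lipoprotein receptors, had 3.81 and 3.59 FPKM in the controls and 4.23 and 4.53 in the ETS1 libraries. Its rise of 0.19 (adjusted p 0.0258) was lost without ETS1 2 (adjusted p 0.136) or control 2 (adjusted p 0.0836), with the local median removed (0.075, adjusted p 0.17), and in the authors' deposited table (adjusted p 0.109).

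ABCG1 (chromosome 21, 42199689 to 42297244), an efflux transporter for cholesterol, had 1.65 and 1.62 FPKM in the controls and 1.16 and 1.16 in the ETS1 libraries. Its log2 change was -0.29 (adjusted p 0.0104), on a scale whose pseudocount of 1 understates changes at this level. With a pseudocount of 0.1 the change was -0.47, with voom on recovered reads -0.50, and in the authors' deposited table -0.48. The call was lost without ETS1 1 (adjusted p 0.0504) or ETS1 2 (adjusted p 0.0542). ABCA1 (chromosome 9, 104781002 to 104928237), the other efflux transporter of the list, lay below the filter at 0.203 and 0.196 FPKM in the controls and 0.376 and 0.392 in the ETS1 libraries. The ratio of mean FPKM was 1.92. The values came from 93 and 98 reads in the controls and 244 and 251 in the ETS1 libraries, which held 1.35 times as many reads in all, and with no filter the limma adjusted p was 0.0342. The liver X receptors, whose known targets include both transporters, did not pass. NR1H2 had 7.02 and 7.14 FPKM in the controls against 7.27 and 7.18, and NR1H3 1.92 and 1.73 against 1.66 and 1.95, where the groups overlapped. SOAT1, which esterifies cholesterol for storage, was 1.11 times the control level (95% interval of the log2 change -0.0033 to 0.28, adjusted p 0.0826), and passed with voom on recovered reads (0.16, adjusted p 0.0202).

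Of the 8 fatty acid genes, 5 were lower, 1 was higher and 2 did not pass, and the median log2 change was -0.17. The 6 called were 75.0% of the group, against 59.1% of all tested genes, and the calls of ACACA and ELOVL6 were lost when either ETS1 library was left out. FADS1 and FADS2, the delta-5 and delta-6 desaturases that make polyunsaturated fatty acids, lie on opposite strands of chromosome 11 with overlapping gene spans and went opposite ways. FADS2 (61792980 to 61867354) had 1.58 and 1.57 FPKM in the controls and 2.44 and 2.47 in the ETS1 libraries, a rise of 0.42 (standard error 0.0494, limma adjusted p 0.00236), or 0.64 with voom on recovered reads. FADS1 (61799625 to 61829318) had 15.4 and 15.1 FPKM in the controls and 11.9 and 11.9 in the ETS1 libraries, a fall of 0.33 (standard error 0.0298, limma adjusted p 0.00126). They share 490 exon bases on opposite strands, 4.79% of those of FADS1 and 4.44% of those of FADS2, and their common neighbourhood had a median of -0.055.

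SCD (chromosome 10, 100347124 to 100364834), the delta-9 desaturase that makes oleate, had 45.9 and 45.04 FPKM in the controls and 36.9 and 36.7 in the ETS1 libraries (-0.30, adjusted p 0.00124). The pairs were tight and well apart. FASN, the fatty acid synthase, fell from 28.4 ± 0.566 to 24.3 ± 0.181 FPKM, and ACACA, the acetyl-CoA carboxylase that feeds it, from 6.69 ± 0.102 to 5.77 ± 0.0508 (SD, n = 2 each). ELOVL6, which elongates palmitate, fell by 0.16 (adjusted p 0.0493). The ACACA call was lost without either ETS1 library (adjusted p 0.0527 and 0.067), and that of ELOVL6 without ETS1 1, ETS1 2 or control 1 (-0.10) and with no intensity trend (adjusted p 0.0547), while removal of the local median gave ELOVL6 -0.31. Quantile normalization gave -0.14 for FASN and -0.18 for SCD, against -0.22 and -0.30. The acetyl-CoA suppliers did not pass. ACLY, which splits citrate and was the most abundant member, had 78.8 ± 1.44 FPKM in the controls and 76.9 ± 0.288 with ETS1, and ACSS2, which activates acetate, 5.19 ± 0.190 and 5.28 ± 0.0317 (SD, n = 2 each). The sign for ACLY depended on scaling: quantile normalization gave 0.11 (adjusted p 0.0246).

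**Figure D3:**
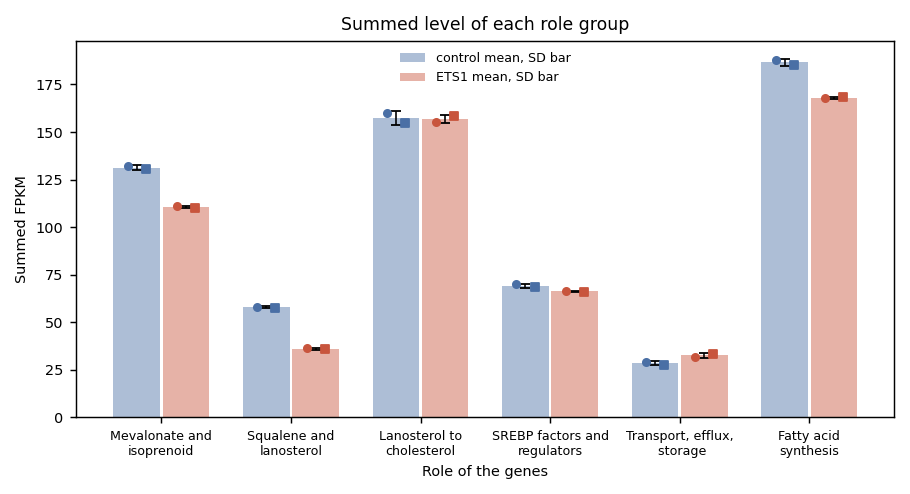
Summed FPKM of the genes of each role group, with the mean of 2 libraries (bars), the SD (error bars) and each library (points), from 0. The squalene genes went from 57.9 to 36.1 and the fatty acid genes from 186.6 to 168.0, while the enzymes from lanosterol to cholesterol stayed near 157.

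Members that share a function were next compared within each library, since a ratio of FPKM within a library does not depend on its scaling. The 6 pairs were chosen with the values known. The LBR to TM7SF2 ratio, on the log2 scale, was 1.92 and 1.84 in the controls and 2.52 and 2.67 in the ETS1 libraries, a difference of 0.72. The SREBF1 to SREBF2 ratio was -1.86 and -1.80 in the controls and -1.20 and -1.17 in the ETS1 libraries, so SREBF2 remained the more abundant factor while its lead shrank by 0.64. The FADS2 to FADS1 ratio went from -3.28 and -3.26 to -2.28 and -2.27, and the ABCA1 to ABCG1 ratio from -3.02 and -3.05 to -1.63 and -1.56. In these 4 pairs the groups did not overlap, with an exact two-sided permutation p of 0.333 each, the smallest that 6 arrangements allow, and 0.4 after Benjamini-Hochberg adjustment over the 6 pairs, so no pair can pass. The other 2 pairs moved little. INSIG1 to INSIG2 went from 1.18 ± 0.0329 to 1.12 ± 0.0165 without overlap (exact permutation p = 0.333, adjusted 0.4), and NR1H2 to NR1H3 from 1.96 ± 0.120 to 2.01 ± 0.178 (SD, n = 2 each; exact permutation p = 0.667, adjusted 0.667), overlapping between groups.

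**Figure D4:**
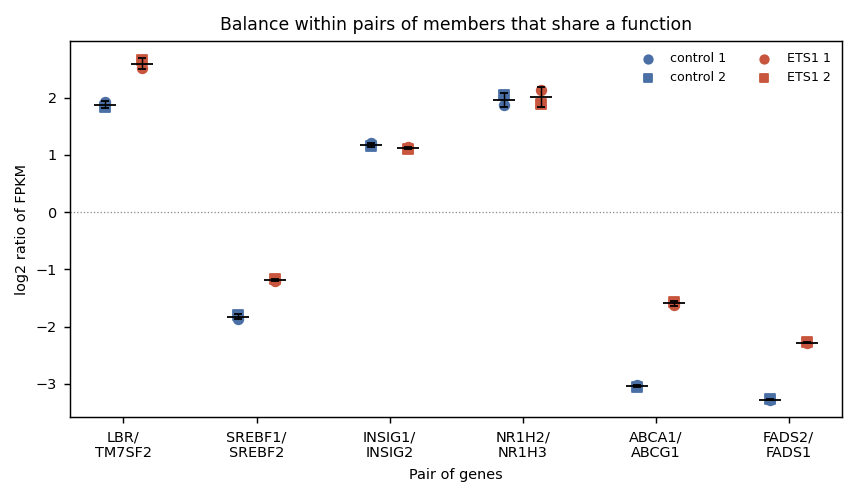
log2 ratio of FPKM within each library for 6 pairs of genes that share a function, with the mean and SD of each group in black. The ETS1 libraries lie above the controls for LBR/TM7SF2, SREBF1/SREBF2, ABCA1/ABCG1 and FADS2/FADS1, just below them for INSIG1/INSIG2, and overlap them for NR1H2/NR1H3.

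Other genes of these pathways, from lists that are not part of the 40, gave the surroundings of these changes. Of 47 tested, 12 rose and 13 fell, with a median log2 change of 0.021. Of the same 47, the authors' deposited table called 8 higher and 16 lower, so the balance of directions depended on the method. By limma 53.2% of the 47 were called, below the 59.1% of all tested genes (30.7% higher and 28.4% lower). Of 9 genes of SREBP processing and sterol sensing, 2 rose and 2 fell (2 higher and 4 lower in the authors' deposited table). The 2 that rose were the proteases that release the SREBPs: MBTPS2 had 3.78 and 3.40 FPKM in the controls and 5.09 and 5.45 in the ETS1 libraries (0.45, adjusted p 0.0033), and MBTPS1 12.2 and 12.1 against 14.9 and 15.1 (0.29, adjusted p 0.00164). SCAP, their partner in the same route, was lower. Of 13 tested genes of sterol transport and storage, 4 rose and 2 fell. LIPA, the lysosomal acid lipase that frees cholesterol from its esters, rose by 0.35, and SCARB1, a receptor for high-density lipoprotein, fell by 0.38. In the isoprenoid branch 7 of 12 fell and 2 rose, a share of 58.3% lower, and the largest changes were those of PDSS1, which builds the side chain of ubiquinone (-0.49), and FNTA, the alpha subunit of farnesyl and geranylgeranyl transferase (-0.45). Of 13 tested genes of fatty acid elongation, activation and supply, 4 rose and 2 fell by limma, while the authors' deposited table called 1 higher and 3 lower. MID1IP1, a regulator of acetyl-CoA carboxylase, rose by 0.27 and the desaturase SCD5 fell by 0.24. HACD2 and HACD3, also on that list, were not analysed here.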

How the data were processed

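RNA of 4 TE5 libraries was sequenced in bulk. The FPKM values were computed by the authors, and the submitters' processing notes name HISAT2, HTSeq, DESeq2 and the builds hg38 and GRCh38; annotation, gene lengths and strand are not given in the sources used here. The authors' deposited comparison table holds 16652 genes with the same FPKM (0 cells differed), a mean normalized count per gene (a signal computed by the authors), log2 fold changes with standard errors on the authors' log2 scale, and the authors' p-values and adjusted p-values, per the file headers, with 969 genes lacking an adjusted p-value.

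Here log2(FPKM + 1) was fitted, for the 14306 genes whose mean FPKM reached 1, with limma 3.58.1 (R 4.3.3; group term, intensity trend, 2 residual and 2.84 prior degrees of freedom), two-sided, with Benjamini-Hochberg adjustment over all tested genes and a threshold of 0.05. Fold changes on this scale understate those of low genes. Reads were recovered from FPKM, size factors and mean normalized counts: 78.0% of values over all 16652 genes lay within 0.05 of a whole number, and 99.3% over the 2885 genes whose mean normalized count was under 100, so reads of abundant genes are approximate. The smallest whole numbers with the observed ratios were used for CYP51A1 and ABCA1, which are not in that table. Replicates differed beyond counting noise (mean chi-square per gene 3.91 in both groups). Positions and exon overlaps come from GENCODE 29 on GRCh38, which may not be the authors' annotation; 84.0% of tested genes matched by name. Tested on simulated reads for the ETS1 against control comparison (14301 genes, replicate CV 0.024), the fit recovered 95.9% of 97 genes changed 1.5-fold and 100% of 97 changed 2-fold. Of its calls, 9.09% were genes not changed, above the nominal share, and 2 genes were called when nothing was changed. The simulation changed 200 genes, drawn from those with a mean above 200 reads, where 59.1% of genes were called in the data. Changes under 1.5-fold, the size of most called members, were not simulated, so these shares do not describe them.

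The members, lists, pairs and tests were chosen with earlier results of these data known. In each role group, library values are given for the members past the threshold, or for the 3 with the largest absolute change, and for each context list the 2 largest changes are named; the other members are given more briefly. Alternatives were another pseudocount or filter, 2 scalings, the replicate number as a block, no trend, each library left out, the authors' values, voom on recovered reads and removal of the local chromosomal median.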

Additional observations from a re-analysis of the deposited data

How the results depend on the processing

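Of 25 called members, 16 kept direction and threshold under every alternative that tested them (13 or 14), 9 lost the threshold in at least 1 and 0 reversed. Counts of called members stayed within 1.5 times the reported ones, except 12 lower without ETS1 2; leaving out each library in turn gave 12 to 16 lower and 4 to 7 higher, medians of -0.14 to -0.098 and 5790 to 7680 genes called in all. The members' median was -0.13 with a pseudocount of 0.1, -0.098 with no filter and -0.13 at a mean FPKM of at least 5 (where 5562 of 8215 genes were called because fewer were tested). It was -0.14 with trimmed-mean scaling, -0.095 with quantile normalization, -0.15 in the authors' deposited values, -0.13 with voom and -0.13 with the local chromosomal median removed. The median over all genes itself shifted by -0.024 with trimmed-mean scaling, -0.0059 with quantile normalization, -0.016 in the authors' deposited values and 0.0046 with voom. With the replicate number as a block, 4 members were higher and 16 lower (52.6%, where 50.9% of all tested genes were called), and MVD, LBR, NSDHL, MYLIP and ELOVL6 lost the threshold; the deviations of same-numbered libraries had r = -0.046 across genes, a single value since 2 libraries a group deviate by equal amounts. Of 13 members that did not pass, 7 (MVK, FDPS, LSS, MSMO1, INSIG1, SOAT1 and ACLY) passed in at least 1 alternative and 6 changed sign: HMGCS1 (-0.0095) and MSMO1 (-0.019) with the local median removed, NR1H2 (-0.022) and ACLY (0.11) with quantile normalization, NR1H3 without ETS1 1 (0.061) or control 1 (0.033), its lowest value being -0.089 without ETS1 2, and ACSS2 with trimmed-mean scaling (-0.0028), quantile normalization (-0.040), the local median removed (-0.019) or without control 1 (-0.0099), its highest value being 0.053 without control 2. The cause was not tested. Reads limit ABCA1 and CYP51A1, with at most 251 in a library.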
